A study of Mus musculus with 26 samples.

Results

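This account follows 35 genes of the unfolded protein response and of protein folding in the endoplasmic reticulum (ER) through spleen RNA of mice given ovalbumin, with or without a microRNA mimic. The genes were chosen by symbol from a named list, drawn up with earlier results of these data known. All 35 were found among the 56392 genes of the deposited table. Ddit3 appears there on more than 1 row, and the longer row, ENSMUSG00000025408, was used because the other row was at 0 in every library. RNA was measured in 26 spleen libraries of female BALB/c mice aged 8 weeks. The measure was FPKM, the fragments of a gene scaled by its length and by a size set for each library. CT names 5 libraries of mice that received saline. OS (6 libraries) and ON (5 libraries) both carry the label of ovalbumin (OVA, an egg-white protein and allergen) at 0.05 mg per day into the peritoneum on days 1, 3 and 5. MM (5 libraries) and MN (5 libraries) carry the label of the same OVA course plus a mimic of miR-676-3P, a synthetic copy of that microRNA, at 7 mg per kg into a tail vein on day 3. What separates OS from ON, and MM from MN, is not said in the labels, nor is whether each library came from its own mouse. The p-values below therefore measure the spread between these libraries, which may be partly technical.

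The ER folds secreted and membrane proteins, and cells that secrete heavily, such as antibody-producing plasma cells in the spleen, need much folding capacity. When unfolded proteins build up, the sensors IRE1, PERK and ATF6 raise chaperones, the degradation machinery that removes misfolded proteins, and, through PERK, the transcription factors ATF4 and CHOP. Whole spleen mixes many cell types, so a change in the number of cells of a type and a change in the RNA of each cell cannot be told apart here.

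Of the 35 genes, 33 passed the filter on low values (5 or more libraries with an FPKM of 1 or higher) and were tested among 15672 genes. Trib3 and Chac1 did not pass and are described by their values only. Libraries held 14224832 to 18113989 reads, and the 35 genes together took 0.407% to 0.577% of them. Spleen markers were present in all libraries, with a summed FPKM of at least 6789. Markers of pancreatic acinar cells, which make digestive enzymes, made up 29.2% of the ON 2 library, 14.7% of MM 2 and 4.44% of ON 3, but no more than 0.00353% of any other library. CT 4 held 6.62% of reads on mitochondrial genes, against 1.26% to 2.39% elsewhere. Comparisons are therefore given with all 26 libraries and again without ON 2, ON 3 and MM 2. Counts at an unadjusted p under 0.05 are given without the share of all genes at that threshold and cannot show an excess.

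In saline libraries the most abundant transcripts per unit of length were those of lumenal folding proteins. Calr, which encodes the lectin chaperone calreticulin, had a mean FPKM of 166 ± 20.8 (SD, n = 5). Pdia3, a disulfide isomerase that works with calreticulin, followed with 127 ± 19.5, then Hspa5 (BiP, the main ER chaperone) with 117 ± 9.81 and Hsp90b1 (GRP94) with 113 ± 17.8. The sensors were low, at 10.4 ± 2.78 for Atf6, 8.76 ± 1.03 for Eif2ak3, which encodes PERK, and 5.92 ± 0.619 for Ern1, which encodes IRE1. Trib3 and Chac1 were lowest, at 0.346 ± 0.210 and 0.381 ± 0.297.

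**Figure D1:**
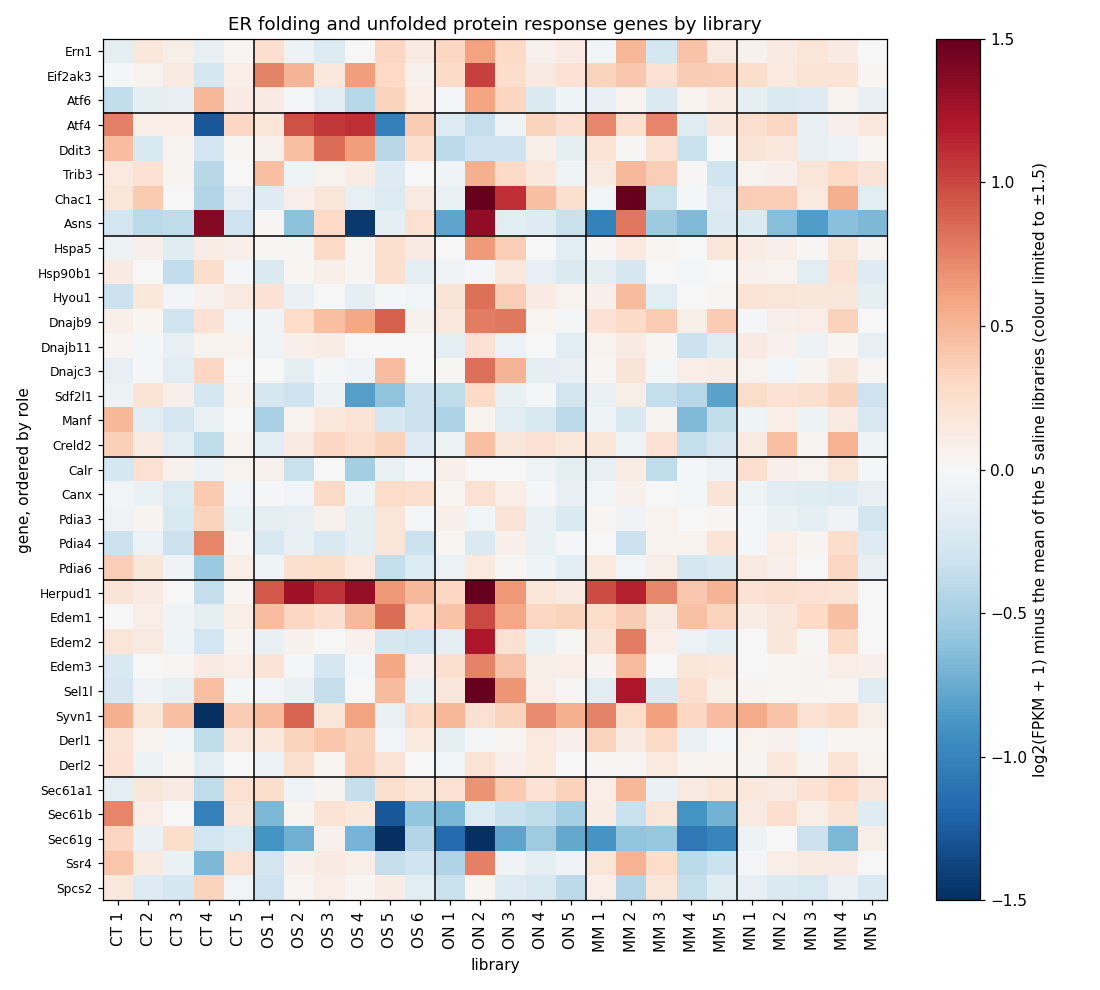
Level of each of the 35 genes (rows, ordered by role) in each of the 26 libraries (columns), as log2(FPKM + 1) minus the mean of the 5 saline libraries, with colour limited to ±1.5. Herpud1 and Edem1 are raised in most OVA columns, Sec61g is lowered, and ON 2, MM 2 and CT 4 stand out as columns.

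The comparison of OVA with saline asks what the allergen course changed in the spleen. Herpud1 and Edem1, both of ER-associated degradation, were higher after OVA, and Sec61g, a subunit of the channel that admits proteins to the ER, was lower. The other 30 tested genes, all of the lumenal chaperones and disulfide isomerases among them, did not pass the test. By limma with Benjamini-Hochberg adjustment at 0.05, 3 of the 33 tested genes were called, against 2.17% of all genes tested. The median log2 difference of the 33 genes was 0.08, against 0.01 for all genes tested. Without ON 2, ON 3 and MM 2, Herpud1 was the only gene called, against 0.696% of all genes, and the median of the 33 genes was 0.03.

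Among the sensors, Eif2ak3 encodes PERK, the kinase that slows translation under ER stress. Its FPKM was 8.49, 9.10, 9.67, 7.11 and 9.45 in the saline libraries. In the OVA libraries it was lowest at 9.15, with a median of 10.8 and a highest value of 18.8. OS 6 lay within the saline range, ON 4 lay just above it, and ON 2, the library richest in acinar reads, was the highest. The log2 difference was 0.39 ± 0.12 (SE), with an adjusted p of 0.0809. Ern1, the RNase that splices Xbp1, differed by 0.17 ± 0.11 and Atf6, a membrane-bound transcription factor, by 0.06 ± 0.13. Neither passed the test, and Atf6 differed by -0.06 ± 0.13 without ON 2, ON 3 and MM 2.

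In the ATF4-CHOP branch no tested gene passed. Atf4, the transcription factor translated when PERK is active, had an FPKM of 121, 76.2, 76.1, 28.8 and 88.2 in the saline libraries and of 34.4 to 153 after OVA. Saline library CT 4 and OVA library OS 5 were far below the other libraries, and the groups overlapped throughout. The log2 difference was 0.22 ± 0.29. Ddit3, which encodes the pro-apoptotic factor CHOP, was at 16.2, 9.68, 11.8, 9.24 and 11.6 after saline and at 8.38 to 21.4 after OVA. Its log2 difference was 0.05 ± 0.15. Asns, the asparagine synthetase induced by ATF4, was at 16.6 to 18.1 in 4 saline libraries and at 59.6 in CT 4. After OVA it was at 7.51 to 57.5, with ON 2 the highest, and its log2 difference was -0.16 ± 0.34. The difference without ON 2, ON 3 and MM 2 was -0.36 ± 0.29 for Asns and 0.08 ± 0.17 for Ddit3, neither called.

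None of the 9 lumenal chaperones passed the test. Hspa5 had an FPKM of 110.5, 122, 103, 126 and 123 in the saline libraries. After OVA its lowest value was 104, its median 118 and its highest 181. Values above the saline range came from OS 3, OS 5, OS 6, ON 3 and ON 2, and the log2 difference was 0.14 ± 0.10 with an adjusted p of 0.523. Hsp90b1, the ER form of HSP90, differed by -0.03 ± 0.10, and Dnajb11, a cochaperone of BiP, by -0.0046 ± 0.08. Dnajb9, a BiP cochaperone and IRE1 pathway target, was at 12.3 to 18.1 after saline and at 14.7 to 29.4 after OVA. OS 5, ON 3 and ON 2 were its 3 highest libraries, and its log2 difference of 0.36 ± 0.14 had an adjusted p of 0.202. Of the 9 chaperones, 5 differences were above 0 and 4 below, from -0.25 for Sdf2l1, a BiP-associated stress protein, to that of Dnajb9. Dnajc3, Hyou1, Creld2 and Manf lay between them and did not pass. The difference of Hspa5 was 0.03 ± 0.08 and that of Dnajb9 0.21 ± 0.13 without ON 2, ON 3 and MM 2. Dnajc3 then went from 0.13 to -0.02, Hyou1 from 0.15 to 0.05 and Hsp90b1 to -0.07, so that 4 of the 9 were above 0 and 5 below.

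The promoters of Hspa5 and Hsp90b1 are shown because these genes hold the ER stress element and did not pass the test. Each window runs from 250 bases before to 50 bases after the start of transcription, as given by RefSeq on GRCm38.p6 and read 5′ to 3′ on the gene's strand. Capitals mark matches to the ER stress element, searched on either strand.
Hspa5 (chr2:34771840-34772139, + strand): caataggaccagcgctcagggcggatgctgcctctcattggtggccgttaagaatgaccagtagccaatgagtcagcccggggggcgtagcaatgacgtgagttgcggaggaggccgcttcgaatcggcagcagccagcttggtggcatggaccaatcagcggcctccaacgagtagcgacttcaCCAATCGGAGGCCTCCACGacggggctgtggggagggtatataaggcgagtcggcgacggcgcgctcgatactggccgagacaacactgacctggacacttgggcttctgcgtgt
Hsp90b1 (chr10:86705395-86705694, - strand): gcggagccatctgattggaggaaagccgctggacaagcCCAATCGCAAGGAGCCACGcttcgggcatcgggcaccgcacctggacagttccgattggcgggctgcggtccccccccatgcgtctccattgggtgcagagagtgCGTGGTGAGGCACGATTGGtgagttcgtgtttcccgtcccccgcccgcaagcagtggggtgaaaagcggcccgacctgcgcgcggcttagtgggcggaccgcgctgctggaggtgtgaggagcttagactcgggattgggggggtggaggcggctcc
The match begins at position -65 from the start in Hspa5 and at -212 and -107 in Hsp90b1. Of 30 genes with a window, 8 held this element (26.7%), against 0.119% of all 32851 windows of the same length. The others were Calr, Canx, Pdia6, Dnajc3, Creld2 and Syvn1. None of these 8 genes passed the test in OVA against saline, which 2.17% of all genes tested did. With so small a share, the lack of a call among 8 genes says nothing about the element. No window was found for Atf6, Hyou1, Manf, Derl1 and Sec61a1. A match describes letters in a window and is no evidence of binding.

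No lectin chaperone or disulfide isomerase passed either. Calr was at 136, 192, 172, 156 and 171 after saline and at 116 to 174 after OVA. Canx, the membrane-bound partner of calreticulin, was at 63.2 to 71.2 in 4 saline libraries and 95.8 in CT 4, against 67.0 to 89.5 after OVA. All 5 log2 differences lay between -0.09, for Pdia4, and 0.08, for Canx, with Pdia3 and Pdia6 between them. Pdia4, a disulfide isomerase, reached 86.9 in CT 4, against 41.3 to 52.6 in the other saline libraries.

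In ER-associated degradation 2 of the 8 genes passed. With all 26 libraries the 8 log2 differences between OVA and saline were above 0, as were those of 8101 of the 15672 genes tested. In the fit without ON 2, ON 3 and MM 2, 7 of the 8 were above 0 and Herpud1 alone passed. Herpud1 encodes a ubiquitin-like ER membrane protein that helps assemble the degradation complex. Its FPKM was 64.1, 61.0, 56.2, 43.3 and 57.1 in the saline libraries. In OS it was 107, 137, 119, 139.8, 88.5 and 78.5, with a lowest value above every saline library. In ON it was 69.6, 228, 88.1, 63.7 and 61.4, so that 2 libraries, ON 4 and ON 5, overlapped saline while ON 2 was the highest of all 26 libraries. The log2 difference of OVA from saline was 0.81 ± 0.22 with an adjusted p of 0.0475, and 0.58 ± 0.14 with an adjusted p of 0.0449 without ON 2, ON 3 and MM 2. Leaving out single libraries gave adjusted p from 0.0223 to 0.0966, and the call held only in the 7 fits without OS 5, OS 6, ON 2, ON 4, ON 5, MM 2 or MM 4.

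Edem1 encodes a mannosidase-like protein that directs misfolded glycoproteins to degradation. Its FPKM was 27.2, 29.2, 26.2, 24.4 and 28.9 after saline. After OVA it was 37.8, 33.9, 32.6, 38.4, 49.2 and 33.5 in OS and 36.9, 55.1, 40.9, 33.9 and 34.5 in ON. All 11 OVA libraries lay above all 5 saline libraries, which was so for 0.198% of all genes tested and for no other of the 35 genes. The log2 difference was 0.49 ± 0.11 with an adjusted p of 0.0167, and the call held in all 26 fits that left out a single library. Without ON 2, ON 3 and MM 2 the difference was 0.40 ± 0.10 and the adjusted p 0.0545.

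The other degradation genes did not pass. Syvn1, the ubiquitin ligase HRD1, differed by 0.42 ± 0.23, with CT 4 at an FPKM of 6.36 against 23.7 to 30.5 in the other saline libraries. Sel1l, the partner of HRD1, differed by 0.30 ± 0.26, and by 0.04 ± 0.12 without ON 2, ON 3 and MM 2. Edem3, a mannosidase, differed by 0.21 ± 0.11, and by 0.12 ± 0.10 without those libraries. Edem2, another mannosidase, and Derl1 and Derl2, which form part of the exit channel, differed by 0.08 to 0.12. Edem2 went from 0.08 ± 0.17 to -0.08 ± 0.09 without those libraries.

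The promoters of both called degradation genes are printed to set their elements beside the values. Capitals in Herpud1 mark matches to a shorter form of the ER stress element, ERSE-II, at position -52 and to the amino acid response element, CARE, reversed at -112, both searched on either strand.
Herpud1 (chr8:94386179-94386478, + strand): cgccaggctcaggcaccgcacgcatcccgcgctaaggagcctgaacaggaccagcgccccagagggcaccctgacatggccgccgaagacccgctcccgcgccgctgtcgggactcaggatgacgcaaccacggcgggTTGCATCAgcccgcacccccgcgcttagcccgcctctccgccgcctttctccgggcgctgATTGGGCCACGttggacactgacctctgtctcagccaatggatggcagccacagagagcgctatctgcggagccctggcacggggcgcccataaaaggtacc
Edem1 (chr6:108828391-108828690, + strand): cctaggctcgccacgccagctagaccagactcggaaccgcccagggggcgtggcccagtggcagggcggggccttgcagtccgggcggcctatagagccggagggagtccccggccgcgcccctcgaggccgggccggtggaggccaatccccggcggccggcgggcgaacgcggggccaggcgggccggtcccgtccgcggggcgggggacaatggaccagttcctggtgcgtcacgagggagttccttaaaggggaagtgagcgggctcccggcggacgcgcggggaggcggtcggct
The shorter element stood in the windows of Herpud1 and Dnajb11 and in 0.0365% of all windows. The amino acid response element stood in those of Herpud1, Chac1, Trib3 and Asns and in 3.97% of all windows. The Edem1 window held none of the 4 motifs searched, and the fourth motif, the unfolded protein response element (UPRE), was in no member's window and in 0.676% of all windows. In all, 13 of the 30 genes held at least 1 motif.

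Sec61g, the gamma subunit of the Sec61 channel, had an FPKM of 61.0, 45.3, 58.4, 39.8 and 42.2 after saline. After OVA it was 25.6, 29.1, 51.0, 29.7, 9.62 and 35.6 in OS and 21.3, 16.7, 27.7, 33.4 and 28.2 in ON. All OVA libraries except OS 3 lay below all saline libraries, and OS 5 was the lowest. The log2 difference was -0.88 ± 0.23 with an adjusted p of 0.0475, and -0.82 ± 0.25 with an adjusted p of 0.141 without ON 2, ON 3 and MM 2. Leaving out single libraries gave adjusted p from 0.0173 to 0.124, and the call held only in the 9 fits without CT 4, OS 3, OS 5, OS 6, ON 4, ON 5, MM 3, MM 4 or MN 4.

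The other genes of protein entry did not pass. Sec61b, the beta subunit, was at 99.9, 63.8, 59.5, 29.0 and 67.3 after saline and at 24.0 to 68.7 after OVA, with a log2 difference of -0.39 ± 0.24. Sec61a1, which forms the channel itself, differed by 0.21 ± 0.11. Ssr4, of the complex that assists the channel, and Spcs2, of the signal peptidase, differed by -0.05 ± 0.18 and -0.13 ± 0.11, and Ssr4 by -0.16 ± 0.16 without ON 2, ON 3 and MM 2.

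**Figure D2:**
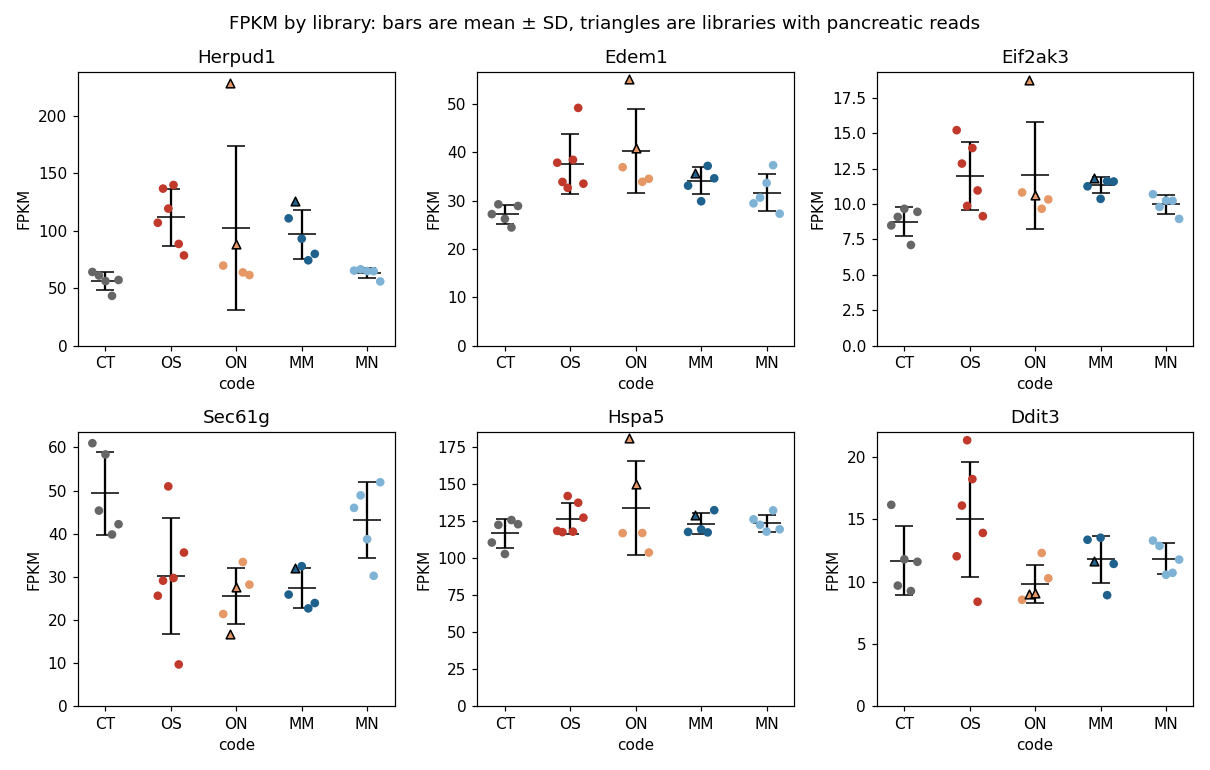
FPKM of 6 genes in each library by code, with mean ± SD bars for 5 or 6 libraries and triangles for ON 2, ON 3 and MM 2, which hold acinar reads. Edem1 is above all saline points in every OS and ON point, Herpud1 is high in OS and MM, and Hspa5 is highest in ON 2 and ON 3.

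Values of other lists moved beside these differences. In OVA against saline 2.17% of all genes were called, and 0.696% without ON 2, ON 3 and MM 2. Of 9 plasma cell markers, 2 were called higher after OVA, Irf4 by 0.57 ± 0.12 and Prdm1 by 0.57 ± 0.11 on the log2 scale, with adjusted p of 0.0126 and 0.00890. Of all 9, 6 differences were above 0 and 3 below, with a median of 0.09. Those below were Mzb1 at -0.35 ± 0.31, Tnfrsf13b at -0.18 ± 0.15 and Tnfrsf17 at -0.07 ± 0.13, none of them called. The summed FPKM of the list was 574 to 758 after saline and 651 to 969 after OVA. The 19 acinar markers summed to 11.7 to 15.3 after saline and to 8.95 to 318936 after OVA, the upper end being ON 2. Of 62 other ER folding and stress genes, only Wfs1, an ER membrane protein of calcium balance, was called, by 0.33 ± 0.09 with an adjusted p of 0.0472. P4hb, a disulfide isomerase, and Serp1, a membrane protein of ER stress, were the most abundant of those that did not pass, each at a difference of 0.10. None of the 62 was called by limma without ON 2, ON 3 and MM 2, with 11 at an unadjusted p under 0.05. The share of all genes at that unadjusted threshold is not given here. Of 13 protein genes encoded in mitochondria, 3 (mt-Nd3, mt-Co2 and mt-Atp8) were called lower after OVA, 11 differences were below 0 and the median was -0.35. With ON 2, ON 3 and MM 2 left out, 2 were called lower, 13 were below 0 and the median was -0.42. Their summed FPKM was 9816 to 50871 after saline, CT 4 being the highest, with a median of 10701, and 10435 to 17259 after OVA, with a median of 13312. The part of these markers in the results for Herpud1, Edem1 and Sec61g was not tested.

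Both OVA codes were also set against saline apart, sharing the 5 saline libraries. In OS, Herpud1 rose by 0.95 ± 0.24 (adjusted p 0.0303) and Edem1 by 0.44 ± 0.12 (adjusted p 0.0412), 2 of 33 genes against 2.99% of all genes tested. Every OS library exceeded every saline library for these 2 genes, as it did for 1.4% of all genes. Without ON 2, ON 3 and MM 2, which enter this comparison through the shared spread alone, Eif2ak3 was called as well, at 0.40 ± 0.11 (adjusted p 0.0385), with 3 of 33 genes against 3.61% of all genes. Single libraries mattered here. The Herpud1 call was lost without CT 2, CT 3, CT 4, CT 5, OS 2, OS 3 or OS 4 (adjusted p up to 0.0763). That of Edem1 was lost without any single saline library, without OS 1, OS 2, OS 4 or OS 5, or without MN 1, MN 2 or MN 3 (adjusted p up to 0.0934).

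In ON, no member was called by limma, against 0.51% of all genes, while 9 members had an unadjusted p under 0.05. Edem1 came nearest, at 0.53 ± 0.12 with an adjusted p of 0.0503, and voom on recovered reads called 1 member. Every ON library exceeded every saline library for Eif2ak3 and Edem1 (1.19% of all genes) and lay below for Sec61g (3.39%). Without ON 2 and ON 3 no other member joined these 3 genes, against 2.92% above and 5.21% below among all genes. Leaving out ON libraries could not have ended these separations, so their persistence is no check. Without ON 2, ON 3 and MM 2 no member was called, against 0.0838% of all genes in limma, with 3 at an unadjusted p under 0.05. The Herpud1 difference then went from 0.66 ± 0.25 to 0.21 ± 0.17.

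OS and ON carry the same treatment label, so their difference was tested directly. With all libraries no member differed, against 0.185% of all genes called by limma, and 4 members had an unadjusted p under 0.05, with none called by voom. Ddit3 was the member with the smallest p, at 0.52 ± 0.17 and an adjusted p of 0.237. Without ON 2, ON 3 and MM 2, Herpud1 was called at 0.74 ± 0.17 (adjusted p 0.0358), against 0.787% of all genes. The 6 OS libraries then lay above all 3 remaining ON libraries for Herpud1 and Hspa5, as was so for 2.74% of all genes.

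Beside this, immediate early and heat-shock genes, which respond quickly to many stimuli, differed between the codes. Of 14 such genes, 6 were called higher in OS than in saline, against 2.99% of all genes called in either direction. Of the 14, 2 were called higher in OS than in ON, against 0.185% in either direction. Their summed FPKM was 232 to 2024 in OS, 214 to 522 in ON and 114 to 632 in saline. Atf3, a stress-induced transcription factor and partner of CHOP, was at 15.6, 33.1, 51.1, 28.7, 2.76 and 22.99 in OS, against 0.416 to 4.26 in saline and 1.19 to 8.84 in ON. OS 5 was the only OS library within the saline range. Atf3 was higher in OS than in saline by 2.72 ± 0.53 (adjusted p 0.00544) and than in ON by 2.66 ± 0.53 (adjusted p 0.0393). Irf4 and Prdm1, from the list of 9 plasma cell markers, were called higher in OS than in ON as well, against 0.185% of all genes. The summed FPKM of that list overlapped, at 651 to 969 in OS and 660 to 851 in ON. Its other markers are not described for this comparison, so no statement on plasma cells follows. The part of these genes in the Herpud1 values was not tested.

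**Figure D3:**
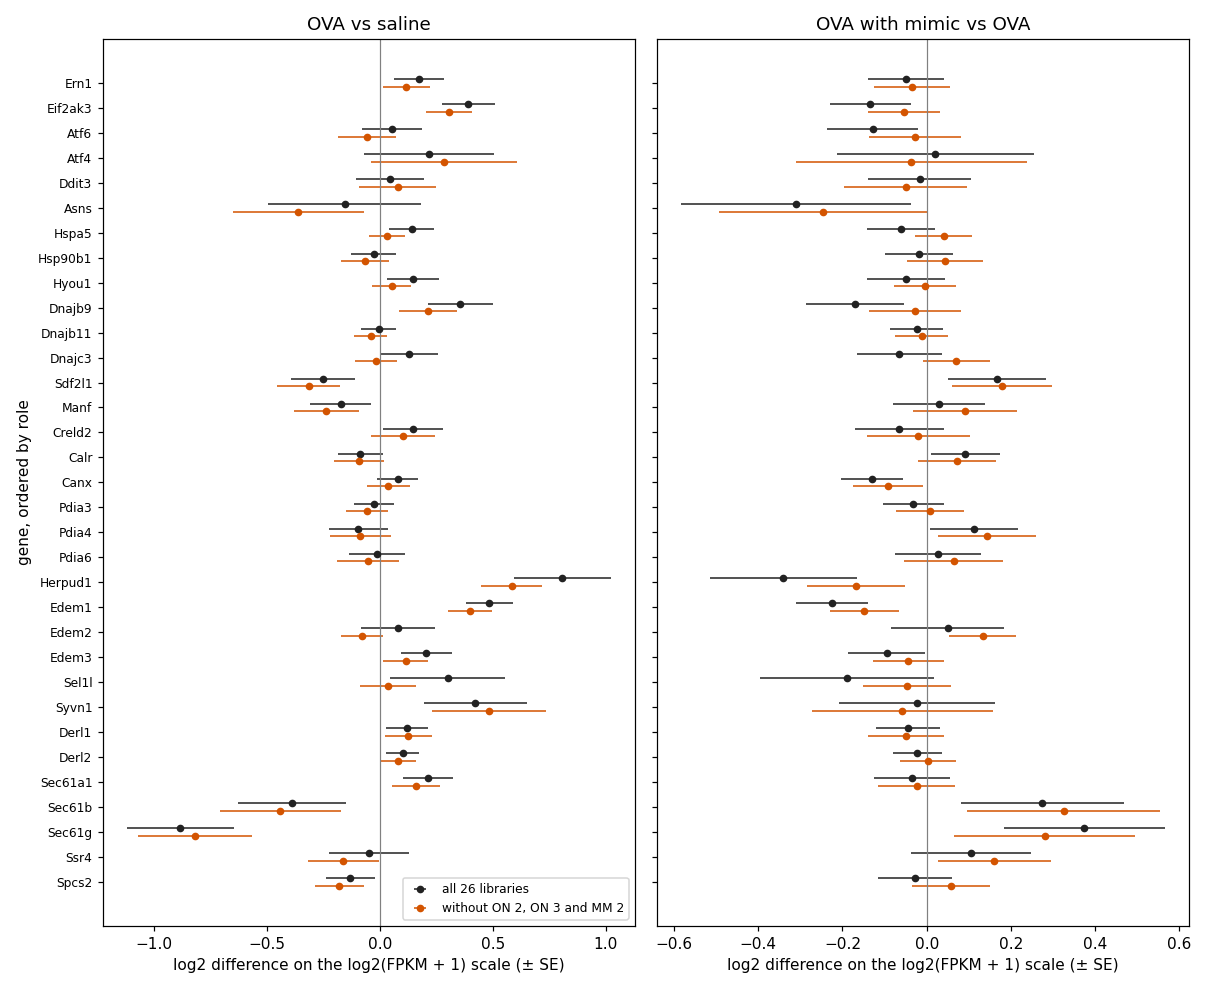
Log2 difference ± SE of each of the 33 tested genes, on the log2(FPKM + 1) scale, for OVA minus saline and for OVA with mimic minus OVA, with all 26 libraries (dark) and without ON 2, ON 3 and MM 2 (orange). With all libraries Herpud1 and Edem1 lie farthest to the right for OVA minus saline and Sec61g farthest to the left, and no gene passed the test for the mimic.

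The comparison of OVA with mimic against OVA asks what the microRNA mimic changed on top of the allergen. No member was called by limma or by voom, and 0% of all genes were. In limma 1 member had an unadjusted p under 0.05. That was Edem1, whose FPKM was 33.1, 35.6, 29.9, 37.2 and 34.6 in MM and 29.4, 30.6, 33.7, 37.3 and 27.3 in MN. These values overlapped the OVA libraries, which began at 32.6, and MN 5 lay within the saline range. The log2 difference from OVA was -0.22 ± 0.09, with an adjusted p of 0.386. Herpud1 differed by -0.34 ± 0.17 (adjusted p 0.503) and by -0.17 ± 0.12 without ON 2, ON 3 and MM 2. Sec61g differed by 0.37 ± 0.19 (adjusted p 0.503). Of the 33 tested genes, 10 differences were above 0 and 23 below, with a median of -0.03, against 7948 above and 7724 below among all genes. The split of the 33 without ON 2, ON 3 and MM 2 was 15 above and 18 below, with a median of -0.01. Edem1 then differed by -0.15 ± 0.08 (adjusted p 0.767), and no member had an unadjusted p under 0.05 in limma. Lumenal chaperones ranged from -0.17 for Dnajb9, which went to -0.03 without those libraries, to 0.17 for Sdf2l1, and lectins and disulfide isomerases from -0.13 for Canx to 0.11 for Pdia4.

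Against saline, OVA with mimic gave no called member by limma or voom, with 4 members at an unadjusted p under 0.05 (Eif2ak3, Herpud1, Edem1 and Sec61g) and 0% of all genes called. Leaving out ON 2, ON 3 and MM 2, limma again called no member and 0% of all genes, with Asns joining these 4 at an unadjusted p under 0.05. In MM alone there was no called member either, against 0.3% of all genes, and the same 4 genes had an unadjusted p under 0.05, with none called by voom. There was again none without ON 2, ON 3 and MM 2, against 0.426%, with 5 at an unadjusted p under 0.05. Herpud1 in MM was 111, 126, 93.0, 74.2 and 79.8, all above the saline libraries, and Eif2ak3 and Edem1 were as well, against 1.2% of all genes. Sec61g was at 25.8, 32, 32.4, 22.6 and 23.9 in MM, all below the saline libraries, against 0.804% of all genes. Without MM 2 no other member joined these 4 genes, against 2.53% above and 1.72% below among all genes. Leaving out an MM library could not have ended these separations, so their persistence is no check. In MN, Herpud1 was 65.3, 66.4, 64.9, 64.8 and 55.9 and Sec61g 46.0, 48.9, 38.7, 30.2 and 51.9, both overlapping saline. No member separated MN from saline, against 0.268% of all genes above and 0.351% below. No member had an unadjusted p under 0.05, and 0% of all genes were called by limma or voom.

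MM and MN, which share a treatment label, were compared as well. No member was called by limma or voom, against 0.172% of all genes by limma, and 3 had an unadjusted p under 0.05, as also without ON 2, ON 3 and MM 2, where 0.181% of all genes were called. Sdf2l1 was at 41.1, 47.1, 34.3, 32.4 and 24.9 in MM and at 53.5, 51.5, 52.1, 55.8 and 35.3 in MN. Only MN 5 overlapped MM, and the log2 difference was -0.47 ± 0.17 (adjusted p 0.429). Herpud1 differed by 0.58 ± 0.25 (adjusted p 0.596) and Sec61g by -0.63 ± 0.28 (adjusted p 0.598). All 5 MM libraries exceeded all 5 MN libraries for Herpud1 and Canx, as for 2.02% of all genes. Without MM 2, Pdia3 joined them (4.12% of all genes) and Calr lay below (2.86%).

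The libraries with acinar reads carried their own pattern in these genes. Their FPKM rest on a library size of 0.712 (ON 2), 0.885 (MM 2) and 0.981 (ON 3) times the recovered reads. Plain totals would give lower values in these libraries, and the counts that follow were not repeated on plain totals. ON 2 was above all 23 libraries without acinar reads for 16 of the 35 members, against 6.13% of all genes tested. ON 2 and MM 2 were both above for 8 members (2.06% of all genes), and ON 3 too for 4 members (0.606%), which were Chac1, Sel1l, Hyou1 and Sec61a1. These are descriptions of 3 libraries and have no test. Chac1 degrades glutathione and is induced by ATF4 and CHOP. Its FPKM reached 10.5, 5.77 and 1.89 in ON 2, MM 2 and ON 3, while the other 23 libraries held 0 to 0.964. The order of the 3 libraries was that of their acinar share. Its promoter is printed because this was the widest separation among the members, with the reversed match to the amino acid response element in capitals at position -193.
Chac1 (chr2:119350992-119351291, + strand): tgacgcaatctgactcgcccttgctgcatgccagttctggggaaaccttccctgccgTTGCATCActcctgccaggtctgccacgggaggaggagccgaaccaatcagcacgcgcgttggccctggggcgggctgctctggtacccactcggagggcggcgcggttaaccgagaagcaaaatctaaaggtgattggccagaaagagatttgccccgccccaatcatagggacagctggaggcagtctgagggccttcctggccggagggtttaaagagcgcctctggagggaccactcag

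Sel1l was at 68.1 in ON 2, 35 in MM 2 and 23.6 in ON 3, against 11.2 to 20.5 in the other 23. Hyou1, a large BiP-related chaperone, was at 29.1, 22.6 and 21.0 in the same order, against 12.7 to 18.9. Sec61a1 was at 25.8, 22.8 and 21.1, against 11.9 to 20.3. All 3 libraries lay above the FPKM range of the other 23 for these genes. For Hyou1 and Sec61a1 this rests on the deposited library sizes. Sec61a1 had 1935 of 15629615 recovered reads in ON 2, against 2249 of 15463020 in ON 5. Hyou1 had 2060 of 14224832 in MM 2, against 2187 of 14581525 in ON 1. By these shares neither gene separated the 3 libraries. Edem2 was at 40.8 and 29.6 in ON 2 and MM 2 and Ssr4 at 41.2 and 34.8, above ranges of 13.7 to 21.0 and 14.7 to 32.5, while ON 3 fell inside both ranges.

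Other folding genes did not follow the acinar share. Hsp90b1 was at 109.9 in ON 2, 94.0 in MM 2 and 124 in ON 3, within the 86.2 to 135 of the other 23 libraries, and Pdia4 at 44.5, 41.4 and 55.0, within 41.3 to 86.9. Calr, Pdia3 and Pdia6 were within the range of the other libraries too. Among the 62 other ER genes 3 were above all 23 libraries in all 3, among them P4hb at 247, 154 and 107 and Fkbp11, an ER folding enzyme, at 26.5, 9.57 and 4.68, against 77.9 to 107 and 0.871 to 2.41.

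**Figure D4:**
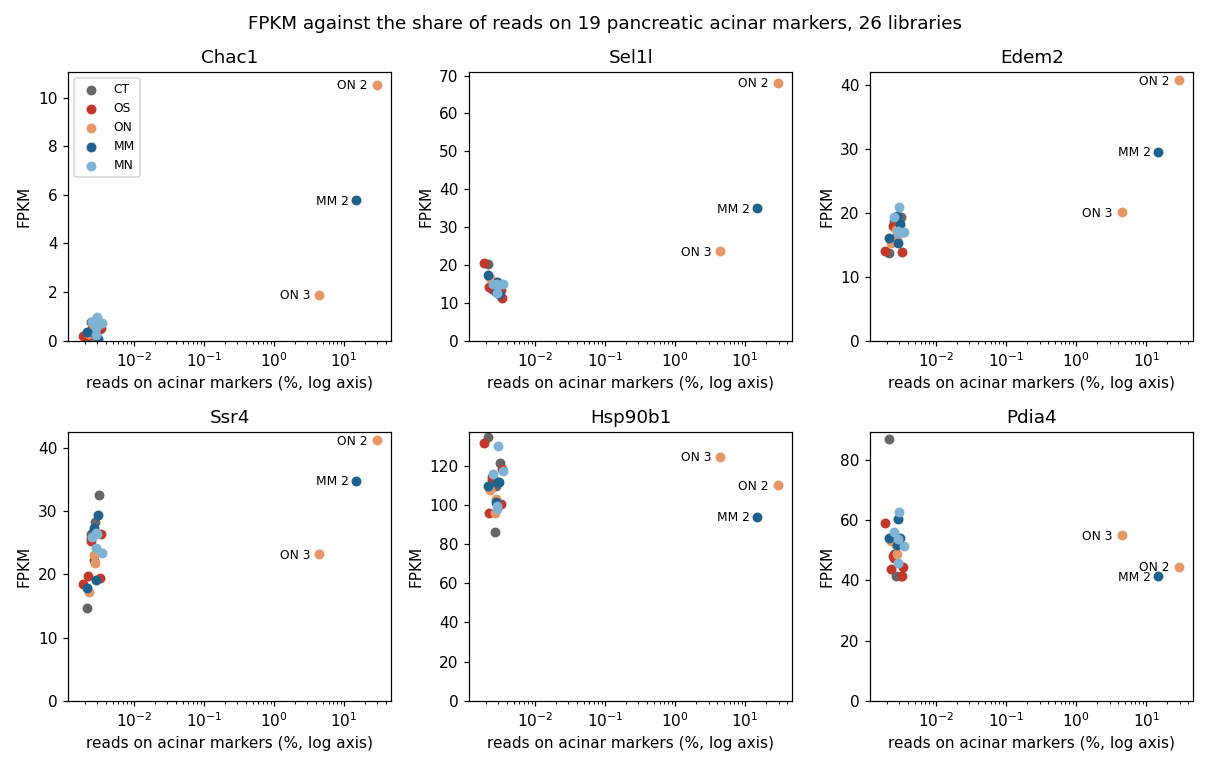
FPKM of 6 genes against the percentage of reads on 19 acinar markers (log axis) in 26 libraries, coloured by code. Chac1, Sel1l, Edem2 and Ssr4 are highest in ON 2 and next in MM 2, while Hsp90b1 and Pdia4 in the 3 labelled libraries lie among the others.

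Saline library CT 4, with its raised mitochondrial share, was the lowest of the 26 libraries for 14 members and the highest for 6, against 25.6% and 21.5% of all genes. It was lowest for Herpud1 and Edem1, both called genes, and for Syvn1 and Atf4, and highest for Asns, Canx, Pdia3, Pdia4, Hsp90b1 and Spcs2. Its FPKM rest on a library size of 0.802 times the recovered reads, so plain totals would give lower values. By share of recovered reads CT 4 was below OS 5 for Canx, with 6022 of 16698715 against 7065 of 15979427. The same held for Pdia3 (6664 against 7615), Hsp90b1 (7274 against 9029) and Spcs2 (2488 against 2705). Without CT 4 as well as ON 2, ON 3 and MM 2, no member was called in OVA against saline, and the Herpud1 difference was 0.49. The share of all genes called in that fit is not given here, so this cannot show a loss particular to the members. The 6 OS libraries lay above the other 4 saline libraries for Herpud1 and Edem1, as for 2.71% of all genes. Leaving out a saline library could not have ended this separation, so it is no check on CT 4.

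Finally, 6 gene pairs were compared across the 23 libraries without acinar reads, by permutation with Benjamini-Hochberg adjustment over the 6. Ddit3 followed Atf3, with Pearson r of 0.72 (p 0.00021, adjusted p 0.00126) and Spearman rho of 0.60 (p 0.00288, adjusted p 0.0173). Within codes, on deviations from the code means, r was 0.71 (adjusted p 0.0222), but rho was 0.50 (adjusted p 0.114). Without OS 3 and OS 4, the farthest libraries, r was 0.55 (adjusted p 0.0647) and rho 0.48 (adjusted p 0.178). The relation therefore rests in part on those libraries. Hspa5 followed Dnajb9 with r of 0.62 (p 0.00196, adjusted p 0.00588), but with rho of 0.39 (p 0.0691, adjusted p 0.185). Hspa5 and Xbp1, the IRE1 target, gave r of 0.50 (p 0.0168, adjusted p 0.0336) and rho of 0.36 (p 0.0927, adjusted p 0.185). Without CT 3 and OS 3, r was 0.50 for the first of these pairs and 0.46 for the second, both with an adjusted p of 0.0748. Within codes r was 0.56 (adjusted p 0.0736) and 0.43 (adjusted p 0.117). Neither pair passed the threshold in these settings. Over all 26 libraries, ON 2, ON 3 and MM 2 included, r was 0.74 for Dnajb9 and 0.78 for Xbp1, both with an adjusted p of 0.000150, and rho was 0.55 and 0.54, both with an adjusted p of 0.0106. The pairs Hspa5 with Mzb1, a plasma cell chaperone, Ddit3 with Trib3, and Asns with Chac1 gave r of -0.20, 0.25 and -0.19, with adjusted p of 0.40, 0.36 and 0.40 and adjusted p for rho of 0.709, 0.306 and 0.709.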

How the data were processed

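RNA-seq of poly(A)-selected spleen RNA was analysed in 26 libraries, grouped by the codes in their labels. The authors deposited FPKM per gene for 56392 genes. The submitters' processing notes list edgeR 3.24.3, DESeq2 1.20.0, StringTie 1.3.3b, HISAT2 2.0.5, CASAVA and featureCounts 1.5.0-p3 without roles, and the genome build and strand setting are not given in the sources used here. The promoter table is on GRCm38.p6, on which gene positions differ from those in the deposited table, so the deposited positions are not printed. FPKM times gene length gave whole multiples of a step per library for 100% of values (tolerance 0.05), from which reads were recovered. The library size that the step implies was not the plain total of recovered reads. It was 0.712 times that total in ON 2, 0.802 in CT 4, 0.885 in MM 2 and up to 1.12 in ON 1. The alternative named plain library totals scaled by the recovered reads themselves. The ± values are SDs between libraries or SEs of the limma fit, so they measure the spread between libraries.

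Genes reaching an FPKM of 1 in 5 or more libraries were tested with limma 3.58.1 in R 4.3.3 (variance trend) on log2(FPKM + 1), a pseudocount of 1 that understates changes of low genes. The fit had 1 mean per code over all 26 libraries, with Benjamini-Hochberg adjustment over all genes within each of 9 comparisons at 0.05. The OS and ON means were averaged to give OVA, and those of MM and MN to give OVA with mimic. The fit was checked on simulated data. FPKM are not counts, so voom on the recovered reads was a further tool. Replicate numbers did not pair libraries: of 50 same-number pairs, 9 had a correlation of deviations over 0.1 (range -0.39 to 0.36). Correlations used 100000 two-sided permutations (Python 3.11.15, scipy 1.17.1). All 35 members are described. Of the other ER genes, up to 4 called with the smallest p and up to 2 not called with the highest FPKM could be named in a comparison. Fkbp11 and P4hb in the acinar libraries were named after their values were seen. The members and all gene lists were chosen with earlier results of these data known.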

Additional observations from a re-analysis of the deposited data

Results flagged for a closer look

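In 175 groups of 1 gene and 1 code, 13 held a library far from the others of its code, by its gap to the nearest library as a share of the code's range. Chance gives about 5% of groups, and causes were not tested. Of the 13, 3 were in ON 2, with FPKM of 18.8 for Eif2ak3, 228 for Herpud1 and 40.8 for Edem2, and 1 in MM 2, with 5.77 for Chac1. Both libraries hold acinar reads. Saline library CT 4 had 3, with Asns at 59.6, Canx at 95.8 and Syvn1 at 6.36. MN 5 had 4, all the lowest of their code, with Hyou1 at 14.5, Sdf2l1 at 35.3, Herpud1 at 55.9 and Sel1l at 12.6. The remaining ones were Hyou1 at 18.9 in OS 1 and Dnajc3 at 39.0 in OS 5.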

How the results depend on the processing

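Of 10494 differences of single members under 36 alternatives, 461 had the other sign, and in none of these was the difference called in either fit. In the fit without ON 2, ON 3 and MM 2 it was 38 of 297, among them Edem2, Atf6 and Dnajc3 in OVA against saline and Hspa5 in ON against saline (0.17 and -0.05). For OVA against saline, 3 members were called. The count was 1 with no filter on low values, 1 with 1 mean per treatment, 1 without ON 2, ON 3 and MM 2, 0 without these and CT 4 (added after seeing the data), 0 with only the codes compared and 5 with library weights. For OS against saline, 2 were called, with 0 under no filter, 1 with only the codes compared, 1 with plain library totals, 1 with the replicate block and 4 with library weights. The replicate block moved no other count of called members by over 1.5 times. For ON against saline, 0 were called, with 3 under library weights and 1 by voom, also added after seeing the data. Library weights gave 2 in MM against saline, 2 in MM against MN and 1 in OS against ON. The share of all genes called with library weights, or by voom in ON against saline, is not given here. The higher counts therefore cannot show a gain particular to the members. OS against ON also gave 1 without ON 2, ON 3 and MM 2, and again without CT 4, and the median member difference went from -0.05 to 0.11 in both. The causes were not tested. Fits leaving out a single library called 1 to 3 members in OVA against saline, 0 to 3 in OS against saline, 0 to 2 in ON against saline, 0 to 1 in MM against saline and 0 to 1 in OS against ON. Over all 26 libraries the correlation of Asns with Chac1 reversed, from -0.19 to 0.52 (adjusted p 0.0150). For Hspa5 with Xbp1, Hspa5 with Dnajb9 and Ddit3 with Atf3, r was 0.46, 0.50 and 0.55 without the 2 farthest libraries, and for Hspa5 on deviations from code means 0.43 and 0.56. Plain totals moved the median of all genes by at most 0.0775 on the log2 scale, in MN against saline. The planned edgeR fit was not run, since the table holds no counts. Trib3 and Chac1 rest on few reads in most libraries.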
